A study of Mus musculus with 4 samples.

Results

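The unfolded protein response and ER folding genes are 36 genes of 32285 counted in mouse colon cells, chosen by symbol from a list of the sensors, transcription factors, chaperones, oxidoreductases, degradation factors and translocon subunits of the endoplasmic reticulum (ER). All 36 symbols were found. Single cells of C57/BL6J mouse colon were measured by droplet sequencing of transcript 3' ends in 2 batches. Each batch was a pool of cells from untreated wild type, untreated JUP-KO, DSS-treated wild type and DSS-treated JUP-KO mice, told apart by 4 hashtag antibodies. JUP is plakoglobin, a protein of desmosomes and adherens junctions, and DSS (dextran sulfate sodium) injures the colon lining when it is drunk. The sources used here do not describe the making of the knockout, the ages, or the dose and days of DSS. They also do not say if each batch had its own mice. Batch was a term in the tests between tags, so a shift shared by all tags of a batch is taken out. The p-values rest on the variation left after that, which may be partly technical.

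The ER folds and modifies proteins bound for the cell surface or for secretion. When unfolded protein accumulates there, IRE1 (Ern1, and Ern2 in mucosal epithelium), PERK (Eif2ak3) and ATF6 are activated. IRE1 splices the mRNA of the transcription factor XBP1, PERK raises translation of ATF4, and ATF6 is cleaved to a transcription factor. Together they raise genes for chaperones, oxidoreductases and ER-associated degradation. In the colon, goblet cells that make mucin and plasma cells that secrete antibody carry a large ER, and both need XBP1 for it. Counts of transcript 3' ends do not show splicing of Xbp1, phosphorylation or cleavage, so the values below are transcript levels only.

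The 4 hashtags are named Ctrl_WT, Ctrl_DSS, TG_WT and TG_DSS. By these names, Ctrl_DSS is DSS-treated wild type and TG_WT is untreated JUP-KO. By the order of the antibody numbers (1 to 4) against the conditions in the protocol, these are the other way round. Ctrl_WT is untreated wild type and TG_DSS is DSS-treated JUP-KO in both readings. Jup, counted in epithelial-like cells, was at 75.3 and 60.5 UMIs per 1000000 UMIs (CPM) under Ctrl_WT in batches 1 and 2, 14.1 and 9.45 under Ctrl_DSS, 81.0 and 102 under TG_WT, and 28.0 and 55.2 under TG_DSS. It was lowest under Ctrl_DSS, which the name reads as wild type. The 3' ends counted may lie outside the deleted part, so this does not settle the reading. Cells are therefore called by their tag, and no direction is drawn for treatment or genotype where Ctrl_DSS or TG_WT enters.

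Filters left 7152 cells in batch 1, with 12322 UMIs in the median cell, and 6468 in batch 2, with 7098. A single tag was called on 2350 and 3159 of them, while 63.4% and 40.4% had no tag and 3.72% and 10.8% had more than 1. The batches shared 14 cell barcodes. Clusters were made without the 36 genes or the wider ER lists among the clustering genes, and were named from marker lists. Cells without a tag were spread unevenly over the classes. They were 1681 of 1981 and 1290 of 1604 colonocyte-like cells. Among goblet-like cells they were 539 of 813 and 360 of 593, and among monocyte or macrophage-like cells 33 of 364 and 9 of 919. Makeup by tag therefore describes tagged cells only. The tagged cells differed in makeup. The goblet-like share of epithelial-like cells was 47.8% and 47.2% under Ctrl_DSS, 34.0% and 23.6% under TG_WT, 20.2% and 14.0% under Ctrl_WT, and 23.1% and 19.6% under TG_DSS. Neutrophil-like cells numbered 615 and 516 under TG_DSS and 16 and 274 under TG_WT, and at most 5 in a batch under either Ctrl tag. Ddit3 is uncertain because the reference holds a pair of overlapping features of that symbol, of which 1 carried all 3760 of its UMIs.

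The promoters of several members hold the ER stress response element, to which ATF6 binds together with the factor NF-Y, and they are shown because this element ties the chaperone genes to the response. Promoters of 29 of the 36 genes were found in a RefSeq table (build GRCm38.p6) with 250 bases before and 50 after each start. The element, searched on both strands as CCAAT, 9 bases of any kind and CCACG, was in 9 of these 29 (31.0%) and in 0.137% of all 27025 genes of the table. The 9 were Hspa5, Hsp90b1, Calr, Canx, Dnajc3, Pdia6, Creld2, Syvn1 and Derl3. A second form, ATTGG, 1 base of any kind and CCACG, was in Dnajb11 and Herpud1 (6.9%, against 0.0444% of all genes), neither of which held the first form. The element was defined on promoters of ER chaperones, Hspa5 among them, so its presence there is not independent. The letters TGACGTGG (the core of a site for XBP1) and TGATGCAAT (a composite site for ATF4) were in none of the 29, against 0.714% and 0.222% of all genes. A match is a description of letters and not a bound site. Below, 1 element is in capitals in each stretch (a pair in Hsp90b1). An element on the other strand reads CGTGG first and ATTGG last. Only bases before the start are printed, 5′ to 3′ along the gene.
Hspa5 (chr2:34771975-34772089, + strand): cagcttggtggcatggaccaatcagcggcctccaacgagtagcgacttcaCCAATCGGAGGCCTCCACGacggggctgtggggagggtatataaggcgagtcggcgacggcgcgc
Hsp90b1 (chr10:86705483-86705694, - strand): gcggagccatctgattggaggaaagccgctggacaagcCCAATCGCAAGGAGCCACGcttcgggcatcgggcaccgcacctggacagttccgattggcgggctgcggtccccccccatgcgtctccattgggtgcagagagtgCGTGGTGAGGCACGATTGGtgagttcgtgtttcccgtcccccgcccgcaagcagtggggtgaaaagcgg
Pdia6 (chr12:17266441-17266559, + strand): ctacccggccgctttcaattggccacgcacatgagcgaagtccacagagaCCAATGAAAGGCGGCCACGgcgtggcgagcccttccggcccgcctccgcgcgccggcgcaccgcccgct
Creld2 (chr15:88819470-88819588, + strand): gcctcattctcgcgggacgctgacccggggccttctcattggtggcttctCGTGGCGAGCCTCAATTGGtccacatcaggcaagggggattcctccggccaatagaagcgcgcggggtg
Derl3 (chr10:75893192-75893310, + strand): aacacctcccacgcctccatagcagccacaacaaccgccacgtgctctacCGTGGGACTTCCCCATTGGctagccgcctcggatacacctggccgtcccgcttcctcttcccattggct
Herpud1 (chr8:94386327-94386428, + strand): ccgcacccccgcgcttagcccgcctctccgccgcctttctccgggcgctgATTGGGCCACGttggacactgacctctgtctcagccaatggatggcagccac

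Counted from the start site, the element began at base -65 in Hspa5, at -212 and -107 in Hsp90b1, at -98 in Pdia6, at -126 in Creld2 and at -156 in Derl3. The shorter form began at -52 in Herpud1. Genes with the element did not share 1 pattern across cells. Against colonocyte-like cells, Canx was at 197 and 190 CPM in goblet-like cells against 180 and 178, while Pdia6 was at 441 and 553 against 73.4 and 59.4.

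The summed level of the 36 genes was highest in the secretory classes. It was 12295 CPM in batch 1 and 10686 in batch 2 in plasma cell-like cells (16 and 77 cells) and 9953 and 10890 in goblet-like cells (813 and 593 cells). Fibroblast-like cells had 5593 and 5745, monocyte or macrophage-like cells 5318 and 5863, and dendritic cell-like cells 5548 and 5048. Stem and transit-amplifying-like cells had 4738 and 5236, colonocyte-like cells 3625 and 3499, and neutrophil-like cells 1937 and 2030. Both batches placed plasma cell-like and goblet-like cells above every other class and neutrophil-like cells below every other class. Plasma cell-like and goblet-like cells changed places between batches. Monocyte or macrophage-like cells overlapped with both fibroblast-like and dendritic cell-like cells, and B cell-like cells, at 4073 and 5611, overlapped with all 3 of these and with stem and transit-amplifying-like cells. Intervals on these sums cover counting error only.

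**Figure D1:**
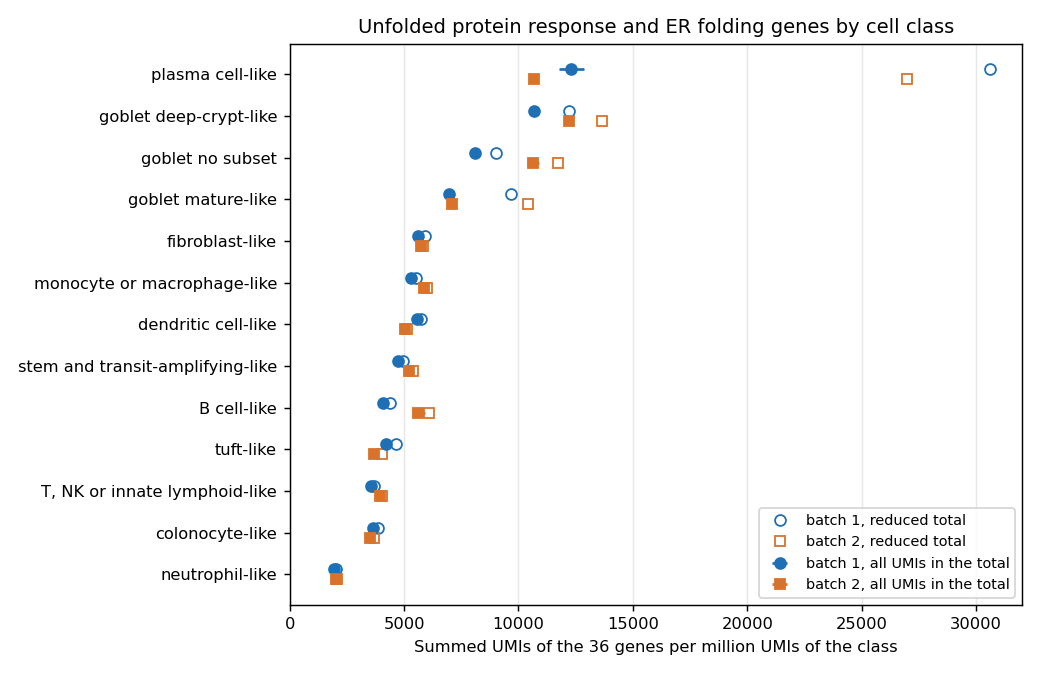
Summed UMIs of the 36 genes per 1000000 UMIs (x axis) for each cell class (y axis), with circles for batch 1 and squares for batch 2; bars are exact 95% Poisson intervals. Open symbols leave mitochondrial, immunoglobulin and goblet list genes out of the total: plasma cell-like cells then reach 30591 and 26968, apart from all other classes.

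These levels are shares of all UMIs, so genes that take up much of a class's RNA lower them. In plasma cell-like cells, mitochondrial, immunoglobulin and goblet list genes held 59.8% and 60.4% of UMIs. With them out of the total, the summed level was 30591 and 26968 in plasma cell-like cells, 11700 and 12916 in goblet-like cells, and 3870 and 3664 in colonocyte-like cells. A goblet-like cell held 204 and 224 member UMIs on average and a colonocyte-like cell 56.1 and 55.0, at median depths of 19887 and 18568 UMIs against 14228 and 13664.

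Goblet-like cells carried more of nearly every member than colonocyte-like cells, the absorptive cells of the colon surface. Of the 36, 34 had a mean of at least 5 CPM over both classes. Trib3 and Derl3 did not. Of these 34, 24 (70.6%) were at least 2-fold higher in goblet-like cells in both batches, where 14.2% of 9566 genes were. None was at least 2-fold lower, where 10.8% of genes were, and all 34 were higher by some amount in both batches, where 52.5% of genes were. Ern2 and Pdia5, among the 24, and Ero1lb, outside them, passed the mean filter through their goblet-like levels. For these genes, being counted as higher is not independent of the filter. The members' median ratio was 2.74, against 1.09 over all genes. These are levels of clusters with no test, since genes correlated with the members took part in clustering.

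**Figure D2:**
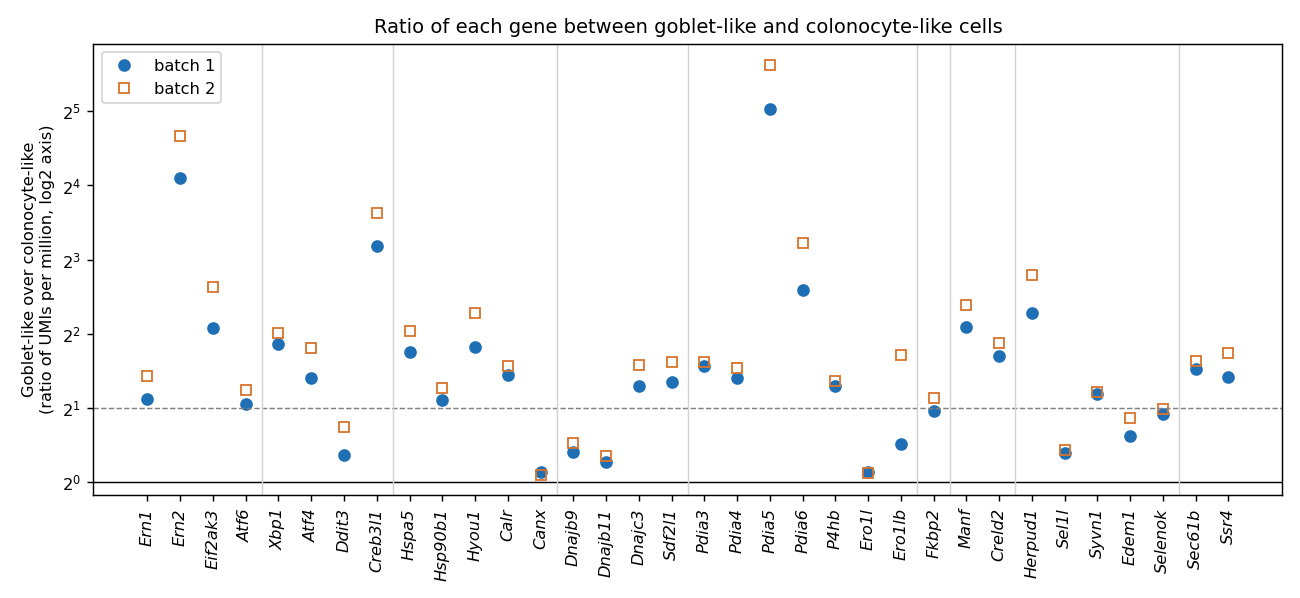
Level in goblet-like cells over level in colonocyte-like cells (log2 y axis) for the members past the mean filter, grouped by role from sensors (left) to translocon (right), circles for batch 1 and squares for batch 2. All 34 lie above 1, with Pdia5 and Ern2 highest, both over colonocyte-like levels near those of neutrophil-like cells, and Canx and Ero1l near 1; the dashed line marks 2-fold.

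Among the sensors, Ern2, the IRE1 form of mucosal epithelium, was at 79.5 and 89.7 CPM in goblet-like cells and at 4.63 and 3.53 in colonocyte-like cells. The colonocyte-like level is near that of neutrophil-like cells (2.79 and 3.06), so no ratio is given. Its relative Ern1 was at 54.6 and 53.1 against 25.1 and 19.8. T, NK or innate lymphoid-like cells had the highest Ern1 of all classes, at 220 and 226 CPM, and no more than 2.98 CPM of Ern2. The sensors thus differed in where they were high. Eif2ak3 (PERK) was at 81.0 and 87.3 against 19.2 and 14.1. Atf6 was at 54.3 and 54.7 against 26.2 and 23.2, and at 193 and 141 in plasma cell-like cells.

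Of the transcription factors, Creb3l1 (OASIS), a membrane-bound relative of ATF6, was at 304 and 331 CPM in goblet-like and 33.5 and 26.7 in colonocyte-like cells. Plasma cell-like cells had 0 and 5.60. Xbp1 was at 302 and 347 against 83.0 and 86.2. Neutrophil-like cells, lowest by the sum, had 233 and 206 CPM of Xbp1, between those classes. Atf4 was at 136 and 149 against 51.5 and 42.7. Ddit3 (CHOP), a target of ATF4 tied to cell death under lasting stress, was at 25.2 and 29.2 against 19.6 and 17.4, and neutrophil-like cells had 50.1 and 63.7. Trib3, another ATF4 target, was at 0.782 and 0.901 against 0.0979 and 0.119, and no named class passed 3.19 CPM except endothelial-like cells of batch 2, where 24 cells held 57771 UMIs in all.

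Of the 5 chaperones, 4 were at least 2-fold higher in goblet-like cells in both batches. Hspa5 (BiP), the main ER Hsp70 chaperone, was at 628 and 703 CPM in goblet-like and 186 and 172 in colonocyte-like cells. Hsp90b1 (GRP94), its Hsp90 counterpart, was at 602 and 628 against 279 and 260. Calr (calreticulin), which holds glycoproteins in the lumen, was at 557 and 599 against 205 and 202. Its membrane-bound partner Canx (calnexin) was at 197 and 190 against 180 and 178, so the pair differed in its ratio. Hyou1, which exchanges the nucleotide of BiP, was at 31.2 and 40.3 against 8.81 and 8.32. Of the BiP partners, Dnajc3 (206 and 247 against 83.8 and 82.7) and Sdf2l1 (117 and 135 against 45.9 and 44.2) passed 2-fold. Dnajb9 (57.1 and 63.2 against 43.0 and 43.8) and Dnajb11 (139 and 157 against 115 and 123) did not.

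All 5 disulfide isomerases passed 2-fold in both batches, and neither of their oxidases did. Pdia5 was at 180 and 175 CPM in goblet-like cells against 5.52 and 3.53 in colonocyte-like cells, which is near its level in neutrophil-like cells (5.57 and 3.34). Pdia6 was at 441 and 553 against 73.4 and 59.4. Pdia3, which works on glycoproteins with calnexin and calreticulin, was at 1049 and 1122 against 354 and 367, Pdia4 at 112 and 121 against 42.1 and 42.0, and P4hb (PDI itself) at 403 and 460 against 164 and 178. The oxidase Ero1l, which recharges these isomerases, was at 40.3 and 43.8 against 36.9 and 40.2, and its relative Ero1lb at 5.83 and 13.7 against 4.08 and 4.16. Ero1lb was higher in other classes, with 91.8 and 153 CPM in tuft-like, 109 and 91.4 in B cell-like and 81.0 and 55.3 in plasma cell-like cells. The isomerases and their oxidases thus did not share 1 profile. The prolyl isomerase Fkbp2 was at 296 and 329 against 153 and 150.

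The luminal stress proteins Manf (527 and 587 CPM against 124 and 112) and Creld2 (49.2 and 57.3 against 15.2 and 15.6) passed 2-fold. Of the degradation factors, Herpud1, a scaffold of the membrane ubiquitin ligase, was at 190 and 236 against 39.3 and 34.0, and Syvn1 (HRD1), the ligase, at 19.1 and 23.4 against 8.42 and 10.1. The ligase's partner Sel1l (45.1 and 52.4 against 34.3 and 38.8), Edem1, which marks misfolded glycoproteins (70.3 and 83.7 against 45.7 and 46.1), and Selenok (331 and 384 against 175 and 195) did not pass it in both batches. The degradation factors were split in this way, while both translocon genes passed. Sec61b was at 1468 and 1451 against 509 and 470 and Ssr4 at 1153 and 1292 against 432 and 386. These genes feed new chains into the ER.

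Goblet-like cells also exceeded stem and transit-amplifying-like cells, the dividing cells of the crypt. Of 34 members past the same mean filter, 22 (64.7%) were at least 2-fold higher in both batches, where 8.1% of genes were, and none was 2-fold lower, where 14.9% of genes were. Median ratios were 2.27 and 0.833. Ero1lb, among the 22, passed the filter through its goblet-like level (5.83 and 13.7 CPM against 2.80 and 4.00). Stem and transit-amplifying-like cells were close to colonocyte-like cells by the same measure. Of 33 members, 4 were 2-fold higher (Ern2, Creb3l1, Pdia5 and Pdia6; 23.8% of genes were) and Dnajb9 was 2-fold lower (9.15% of genes were). Ern2 was at 14.0 and 18.1 CPM and Pdia5 at 32.4 and 34.8 in stem and transit-amplifying-like cells. Both passed the mean filter through these levels, since their colonocyte-like levels are near those of neutrophil-like cells.

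The difference between goblet-like and other epithelial cells was present under each tag. In 8 pairs of goblet-like and non-goblet epithelial-like sums, 1 per tag and batch, of 34 members past the mean filter, 26 were higher in goblet-like cells in all 8, where 11.4% of 9822 genes were, and 33 in at least 6, where 28.8% were. Canx was lower in 6 of 8.

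Goblet-like cells held a deep-crypt-like cluster (504 and 303 cells, led by Muc2, Ccn3, Spink4 and Mptx1) and a mature-like cluster (239 and 228 cells, led by Clca1, Zg16 and Fcgbp). The first cluster's leading genes include 2 of the mature list (Muc2, Ccn3) beside 3 of the deep-crypt list (Spink4, Mptx1, Retnlb). Summed members were 10685 and 12218 CPM in deep-crypt-like and 6956 and 7079 in mature-like cells. With mitochondrial, immunoglobulin and goblet list genes left out of the total, these were 12186 and 13650 against 9690 and 10425, so the gap was smaller on that scale. Member by member, 4 of 34 (11.8%) were at least 2-fold higher in deep-crypt-like cells in both batches, where 12.2% of genes were, which is near the background. None was 2-fold lower, where 6.37% were.

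The 4 were Creb3l1, Sdf2l1, Pdia5 and Ssr4. Creb3l1 was at 340 and 390 CPM in deep-crypt-like and 85.8 and 99.5 in mature-like cells, Pdia5 at 198 and 206 against 70.9 and 77.2, Sdf2l1 at 133 and 163 against 58.8 and 59.0, and Ssr4 at 1288 and 1538 against 615 and 673. None of the 4 sensors was higher in deep-crypt-like cells in both batches. Eif2ak3 was at 68.6 and 67.7 against 94.6 and 111, Ern1 at 44.9 and 42.7 against 69.1 and 56.7, and Ern2 at 75.2 and 82.3 against 76.9 and 79.3. Another goblet-like cluster (70 and 62 cells, led by Kcnma1, with none of the goblet lists among its 10 leading genes) belonged to neither subset and exceeded both in the sensors. There Ern2 was at 180 and 244 CPM, Eif2ak3 at 277 and 249, Ern1 at 189 and 183, and Atf6 at 155 and 173. Creb3l1 was at 507 and 624, and the 36 genes summed to 8078 and 10630. Its median depth was 5282 and 5346 UMIs per cell.

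Median depth was 24237 and 27290 UMIs per cell in deep-crypt-like and 5639 and 6001 in mature-like cells.

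Thinned to 2000 UMIs per cell, Creb3l1 was seen in 47.8% and 47.0% of deep-crypt-like, 19.0% and 21.03% of mature-like and 5.19% and 4.87% of colonocyte-like cells. Unthinned shares were 97.0% and 97.7%, 48.5% and 50.9%, and 24.2% and 23.4%. Neutrophil-like cells had 1.53% and 0.357% after thinning. Barcodes of at most 100 UMIs, taken as free RNA, held 69.4 and 72.3 CPM of Creb3l1. Colonocyte-like cells held 33.5 and 26.7 CPM, so their share is not set apart from free RNA. Ern2 was seen in 13.6% and 16.8% of deep-crypt-like, 22.9% and 22.6% of mature-like and 0.689% and 0.390% of colonocyte-like cells after thinning. The colonocyte-like share of Ern2 was near that of neutrophil-like cells, 0% in batch 1 and 0.357% in batch 2, so it is not read as expression. The exact binomial 95% intervals for Ern2 in deep-crypt-like and mature-like cells were 10.7% to 17.0% and 17.4% to 29.3% in batch 1, and 12.7% to 21.5% and 16.9% to 29.1% in batch 2, and only those of batch 2 overlapped. They cover counting error between cells of 1 library.

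Plasma cell-like cells showed another member profile. This class rests on 16 and 77 cells, and Xbp1 and Derl3 were on its marker list, so their levels there are not a result although neither took part in naming it. Against T, NK or innate lymphoid-like cells, 18 of 34 members (52.9%) were at least 2-fold higher in both batches, where 2.91% of 9704 genes were. Ern1 and Creb3l1 were 2-fold lower, where 51.0% of genes were. Creb3l1 (0 and 5.60 CPM against 37.5 and 11.9) passed the mean filter through its T, NK or innate lymphoid-like level. Hsp90b1 was at 2399 and 1494 CPM against 248 and 249, Edem1 at 530 and 256 against 56.2 and 78.9, Pdia4 at 467 and 298 against 56.2 and 41.7, and Creld2 at 218 and 264 against 30.4 and 14.9. Chaperones, isomerases and degradation factors were all among the higher genes. Without Xbp1 and Derl3, 16 members were higher. Median ratios were 2.51 for the members and 0.338 for all genes.

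Against goblet-like cells, 9 of 35 members were at least 2-fold higher in plasma cell-like cells in both batches (Atf6, Xbp1, Hsp90b1, Pdia4, Ero1lb, Creld2, Sel1l, Edem1 and Derl3), where 5.92% of genes were. Without the marker list genes Xbp1 and Derl3 there were 7. In the other direction 6 were 2-fold lower (Ern2, Creb3l1, Canx, Pdia3, Pdia5 and P4hb), where 46.6% were. On the reduced total these counts were 16 and 3. Pdia5 (0 and 5.60 CPM), Ern2 (0 and 1.40) and Creb3l1 (0 and 5.60) were nearly absent from plasma cell-like counts, and Derl3, a degradation factor of the ER membrane, from goblet-like counts. Pdia5, Ern2 and Creb3l1 passed the mean filter through their goblet-like levels, and Derl3 through its plasma cell-like level. Their place in these counts is therefore not independent of the filter. In batch 1 of plasma cell-like cells, 3 UMIs would be 18.7 CPM, the limit that a count of 0 allows there.

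In monocyte or macrophage-like cells, 20 of 33 members (60.6%) were at least 2-fold higher than in neutrophil-like cells in both batches, where 52.3% of genes were, which is near the background. Neutrophil-like cells had 48.2 and 35.9 CPM of Hsp90b1 and 44.97 and 32.6 of Calr, while their Hspa5, at 291 and 272, was above the colonocyte-like level. Ddit3 was 2-fold lower in monocyte or macrophage-like cells, where 7.99% of genes were. Selenok, a small selenoprotein of the ER membrane, was at 400 and 508 CPM in neutrophil-like cells against 271 and 362, and Ero1l at 58.5 and 86.8 against 54.5 and 61.6. In fibroblast-like cells, 6 of 32 members (18.8%) were 2-fold above colonocyte-like cells, where 25.1% of genes were.

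A wider set of 127 ER genes in 6 lists gave the following against colonocyte-like cells, where 14.2% of genes were 2-fold higher in goblet-like cells. Translocation, signal peptidase and glycosylation genes were 2-fold higher in 23 of 30, other chaperones and isomerases in 12 of 19 past the mean filter, and ER to Golgi transport genes in 11 of 25. ER-associated degradation genes were higher in 4 of 20, genes of the stress kinase and ATF4 branch in 4 of 13 and membrane transcription factors in 2 of 8. The last list also held the 1 lower gene, Creb3l3, at 0.661 and 0.410 CPM against 6.75 and 14.2. Kdelr3, a receptor that returns ER proteins from the Golgi, was at 93.2 and 99.5 CPM against 1.17 and 0.872, Fkbp11 at 246 and 252 against 4.37 and 2.69, and Creb3l4 at 94.6 and 93.9 against 1.21 and 1.19. Kdelr3, Fkbp11 and Creb3l4 passed the mean filter through their goblet-like levels, and Creb3l3 through its colonocyte-like level. Their place in these counts is therefore not independent of the filter. Agr2, an isomerase that folds mucin, is on the list of other chaperones and isomerases. It is a goblet marker here and not a result.

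Between tags, the summed members of epithelial-like cells (goblet-, colonocyte-, stem and transit-amplifying- and tuft-like cells together) were highest under Ctrl_DSS. The sum was 6891 and 8292 CPM under Ctrl_DSS (251 and 339 cells), 5910 and 5744 under TG_WT (294 and 148 cells), 4896 and 4971 under Ctrl_WT (84 and 50 cells), and 4860 and 5926 under TG_DSS (52 and 46 cells). Ctrl_DSS did not overlap any other tag, and TG_WT did not overlap Ctrl_WT. These sums leave out unnamed clusters and a class with mixed epithelial and neutrophil markers. That mixed class held 235 and 125 cells under TG_DSS, 27 and 84 under TG_WT, 20 and 13 under Ctrl_DSS, and 4 and 1 under Ctrl_WT. Under TG_DSS it was thus larger than the epithelial-like class itself. No member passed an adjusted p of 0.05 in edgeR's quasi-likelihood test in any of the 16 comparisons tested between tags. Comparisons that share a tag share its cells. In a sum over epithelial-like cells, fewer goblet-like cells and less member RNA per goblet-like cell cannot be told apart.

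**Figure D3:**
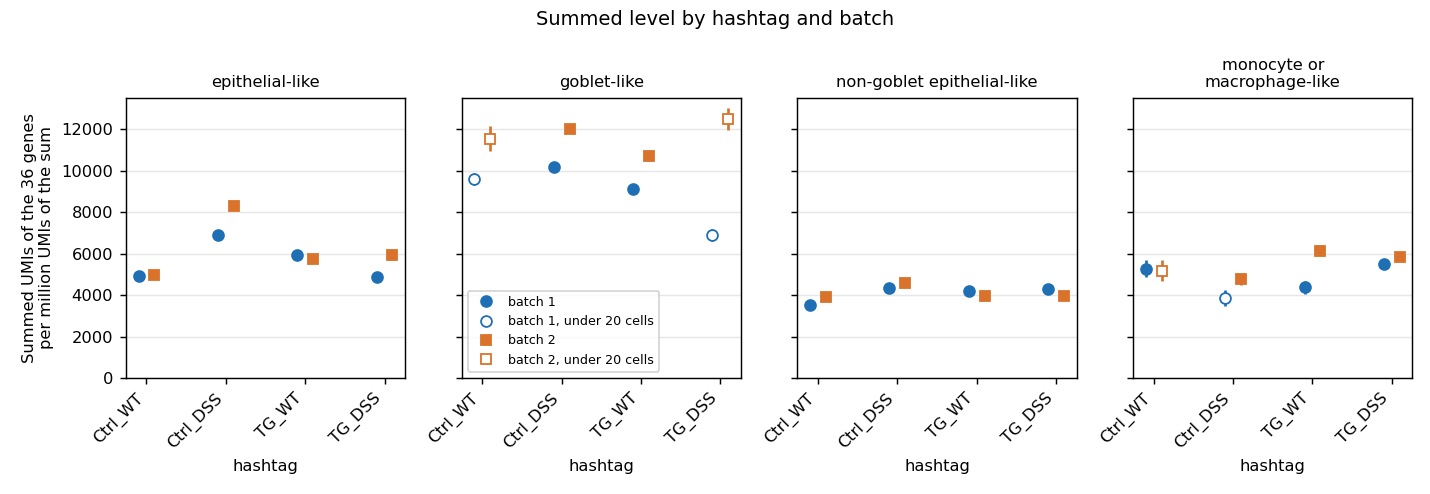
Summed UMIs of the 36 genes per 1000000 UMIs (y axis) by hashtag (x axis) in 4 cell classes, circles for batch 1 and squares for batch 2, open where under 20 cells; bars are exact 95% Poisson intervals. Epithelial-like cells under Ctrl_DSS stand highest at 6891 and 8292, while the non-goblet sums all lie between 3529 and 4596.

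The 6 members with the smallest p between Ctrl_DSS and Ctrl_WT were all at least 2-fold higher in goblet-like than in colonocyte-like cells. So were 24 of the 34 members past the mean filter. Pdia5 was at 93.1 and 97.0 CPM under Ctrl_DSS and 48.9 and 31.4 under Ctrl_WT, and Creb3l1 at 185 and 210 against 73.6 and 82.6. Pdia6 was at 283 and 384 against 163 and 197. None of the 3 overlapped between these tags. Genes named in these comparisons were picked by p. Their lack of overlap, given without the share over all genes, is therefore not a separate result here or below. Atf4 was at 108 and 119 against 56.6 and 72.2, Herpud1 at 122 and 142 against 72.0 and 76.8, and Sec61b at 998 and 1112 against 637 and 644. Fitted log2 differences were 1.16 (SE 0.24, adjusted p 0.0922) for Pdia5, 1.29 (SE 0.30, adjusted p 0.116) for Creb3l1 and 0.83 (SE 0.19, adjusted p 0.110) for Pdia6. For Sec61b, Atf4 and Herpud1 they were 0.67, 0.78 and 0.77 with adjusted p of 0.152, 0.159 and 0.160.

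Over the 34 members tested there, edgeR called 0, where 0.198% of 11123 genes were called, 18 had an unadjusted p under 0.05, where 15.0% of genes had, and DESeq2 called 5 (Creb3l1, Pdia5, Pdia6, Sec61b and Ssr4). Counts by DESeq2, here and below, stand without the share of all genes it called, so they are not set against a background. The log2 difference was positive for 31 of 34, where it was positive for 52.1% of genes, with a median of 0.53 against 0.02 over all genes. The adjusted p of Pdia5 ran from 8.41e-05 to 0.547 over the alternatives and that of Creb3l1 from 3.19e-06 to 0.639, so the call depends on the fit. Without TG_WT replicate 1, edgeR called Creb3l1 (log2 1.29, adjusted p 0.0317), and without TG_WT replicate 2 it called Creb3l1 (1.28, 0.029) and Ern2 (1.19, 0.0481). Both tags of the comparison were complete in those fits. The goblet-like share was higher under Ctrl_DSS in both batches, and all 16 goblet marker genes were present in each sum, at 41812 and 54093 CPM in total under Ctrl_DSS and 30422 and 12498 under Ctrl_WT.

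Within non-goblet epithelial-like cells the same comparison gave a median of 0.16 over 33 members, 22 of them positive (49.2% of genes were). Sums were 4353 and 4596 CPM under Ctrl_DSS and 3529 and 3904 under Ctrl_WT. In this class edgeR called 0 members, where 0.0194% of 10283 genes were called, 2 (Creb3l1 and Hsp90b1) had an unadjusted p under 0.05, where 9.32% of genes had, and DESeq2 called 0. Creb3l1 was at 83.0 and 52.8 against 26.0 and 36.6 CPM (log2 1.06, SE 0.36, adjusted p 0.413), and Hsp90b1 at 427 and 457 against 286 and 318 (log2 0.47, SE 0.20, adjusted p 0.517). In goblet-like cells, sums were 10180 and 12027 CPM under Ctrl_DSS and 9593 and 11549 under Ctrl_WT, the latter from 17 and 7 cells, with no test. The Ctrl_DSS over Ctrl_WT ratio of summed members was 1.41 and 1.67 in epithelial-like, 1.23 and 1.18 in non-goblet and 1.06 and 1.04 in goblet-like cells. It was thus smaller within each of these 2 parts than over epithelial-like cells as a whole. Non-goblet epithelial-like cells are still a mixture. Colonocyte-like cells were 51.2% and 80.6% of them under Ctrl_DSS and 82.0% and 95.2% under Ctrl_WT. In colonocyte-like cells alone the ratio was 1.22 and 1.003. The part of this makeup in the non-goblet ratio was not tested.

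**Figure D4:**
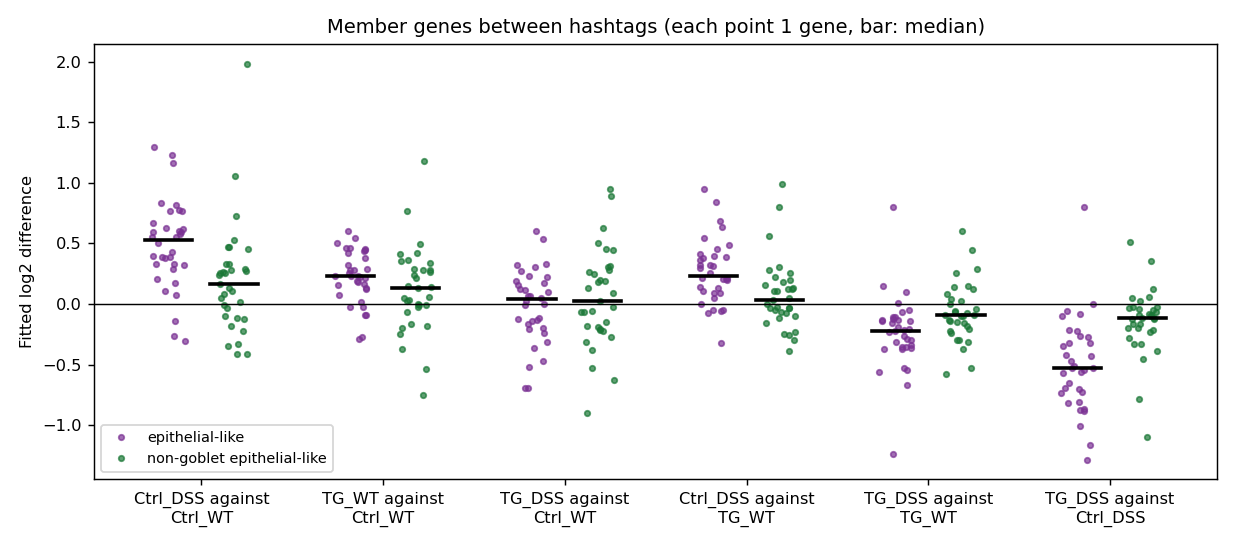
Fitted log2 difference of each member (y axis) in 6 comparisons between hashtags (x axis), purple for epithelial-like and green for non-goblet epithelial-like cells; the bar is the median. The epithelial-like medians of 0.53 (Ctrl_DSS against Ctrl_WT) and -0.53 (TG_DSS against Ctrl_DSS) become 0.16 and -0.11 without goblet-like cells.

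Between TG_DSS and Ctrl_DSS, the log2 difference was negative for 32 of 34 members in epithelial-like cells, with a median of -0.53. It was positive for 49.2% of all genes, whose median was -0.01. Pdia5 was at 39.0 and 50.0 CPM under TG_DSS against 93.1 and 97.0, and Eif2ak3 at 15.6 and 27.6 against 50.5 and 46.0. Sdf2l1 was at 51.4 and 69.6 against 93.1 and 112. The tags did not overlap for any of these 3, which were picked by p. Log2 differences were -1.16 (SE 0.24, adjusted p 0.0752) for Pdia5, -1.28 (SE 0.28, adjusted p 0.0917) for Eif2ak3 and -0.81 (SE 0.19, adjusted p 0.104) for Sdf2l1. For Pdia6, Fkbp2 and Ssr4 they were -0.81, -0.70 and -0.73 with adjusted p of 0.107, 0.126 and 0.126. By edgeR 0 members were called, where 0.872% of genes were, 20 had an unadjusted p under 0.05, where 11.6% of genes had, and DESeq2 called 3 (Pdia5, Pdia6 and Ssr4).

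Epithelial-like cells under TG_DSS also carried neutrophil transcripts. The 11 genes of the neutrophil list summed to 3620 and 5755 CPM under TG_DSS, with none at 0, and to 59.8 and 187 under Ctrl_DSS. Cells with over 0.1% of UMIs from that list were 30.8% and 23.9% under TG_DSS. Without such cells the members' median was -0.55 and edgeR called 0. Without goblet-like cells the median of this comparison was -0.11 over 33 members, of which 6 were positive (49.1% of genes were). There edgeR called 0, where 0.583% of genes were called, 0 had an unadjusted p under 0.05, where 4.83% of genes had, and DESeq2 called 0. The smallest p there belonged to Edem1 (log2 0.51, adjusted p 1.00), Hsp90b1 (-0.33), Ddit3 (-0.78), Atf4 (-0.33), Atf6 (0.36) and Ern2 (-1.09). Goblet-like cells under TG_DSS, 12 and 9 in number, had member sums of 6894 and 12496 CPM, which lie on either side of Ctrl_DSS (10180 and 12027).

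TG_DSS against Ctrl_WT compares DSS-treated JUP-KO with untreated wild type in both readings of the tags. In epithelial-like cells the log2 difference was positive for 19 of 34 members (48.7% of genes were), with a median of 0.04 (all genes -0.01). With edgeR 0 were called, where 0.045% of genes were, 0 had an unadjusted p under 0.05, where 8.05% of genes had, and DESeq2 called 0. Eif2ak3 was at 15.6 and 27.6 CPM against 34.6 and 25.6, which overlap, with a log2 difference of -0.69 (SE 0.32, adjusted p 0.639). Creb3l1 was at 103 and 150 against 73.6 and 82.6 without overlap, with a log2 difference of 0.60 (SE 0.32, adjusted p 0.676). Ero1l, Ern1, Fkbp2 and Ddit3 followed by p at -0.52, -0.47, -0.32 and -0.70. The median SE of a member was 0.23, so differences of about that size were not detectable, and much larger ones could also go uncalled. Between Ctrl_DSS and Ctrl_WT in the same class, a member at 1.29 was not called. Outside goblet-like cells 17 of 33 were positive (49.2% of genes were), edgeR called 0, where 0.253% of genes were called, Creb3l1 alone had an unadjusted p under 0.05 (log2 0.95, SE 0.39, adjusted p 0.645), where 7.4% of genes had, and DESeq2 called 0.

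TG_WT against Ctrl_WT gave positive differences for 28 of 34 members in epithelial-like cells, with a median of 0.23 against 0.01 over all genes, where 51.7% of genes were positive. Calr was at 342 and 352 CPM under TG_WT against 272 and 244, and Hspa5 at 357 and 405 against 282 and 278, without overlap. Their log2 differences were 0.45 (SE 0.19) and 0.46 (SE 0.20), each with an adjusted p of 0.982. Manf, Eif2ak3, Xbp1 and Atf4 followed at 0.50, 0.54, 0.44 and 0.42. Of 18 genes raised by tissue dissociation, 17 were positive in the same comparison, with a median of 0.36. Neither Calr nor Hspa5 was called by edgeR, which called 0 members and 0.0% of genes, these 2 had an unadjusted p under 0.05, where 4.55% of genes had, and DESeq2 called 0. Summed members in non-goblet epithelial-like cells were 4183 and 3959 CPM under TG_WT and 3529 and 3904 under Ctrl_WT, with a median log2 difference of 0.13 and 21 of 33 positive (51.1% of genes were). In that class edgeR called 0 (0.0% of genes), DESeq2 called 0, and 0 had an unadjusted p under 0.05, where 4.06% of genes had.

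Ctrl_DSS against TG_WT, the pair whose reading is in doubt, gave a median of 0.23 in epithelial-like cells with 29 of 34 members positive (51.4% of genes were). Pdia5 was at 93.1 and 97.0 CPM against 53.6 and 40.2 (log2 0.95, SE 0.21, adjusted p 0.245) and Ern1 at 51.4 and 37.8 against 29.9 and 22.6 (log2 0.68, SE 0.18, adjusted p 0.257). Pdia6, Creb3l1, Sdf2l1 and Herpud1 followed at 0.55, 0.84, 0.45 and 0.49. Again edgeR called 0, where 0.00899% of genes were called, 7 had an unadjusted p under 0.05, where 12.7% of genes had, and DESeq2 called 0. Without TG_WT replicate 1, edgeR called Creb3l1 (log2 1.46, adjusted p 0.0343, with a range of 0.00684 to 1 over the alternatives). The lone remaining TG_WT sum is assumed in that fit to vary like the others. Outside goblet-like cells 18 of 33 were positive (49.0% of genes were) with a median of 0.04, edgeR called 0 (0.00972% of genes), 0 had an unadjusted p under 0.05, where 8.09% of genes had, and DESeq2 called 0.

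TG_DSS against TG_WT gave a median of -0.22 in epithelial-like cells with 4 of 34 positive (47.1% of genes were). Eif2ak3 was at 15.6 and 27.6 CPM against 47.5 and 40.9 without overlap (log2 -1.23, SE 0.29, adjusted p 0.305). Xbp1 (-0.56), Dnajb11 (-0.53), Ero1l (-0.54), Dnajc3 (-0.37) and Selenok (-0.35) followed. The edgeR count was 0, where 0.045% of genes were called, 4 had an unadjusted p under 0.05, where 6.9% of genes had, and DESeq2 called 0. Among non-goblet epithelial-like cells 10 of 33 were positive (48.9% of genes were), edgeR called 0 (0.263% of genes), 0 had an unadjusted p under 0.05, where 4.63% of genes had, and DESeq2 called 0. There Eif2ak3 was at 16.0 and 20.9 against 23.0 and 13.9 CPM, with overlap. Whether Eif2ak3 differed between these classes in this respect was not tested.

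The interaction, TG_DSS minus TG_WT minus Ctrl_DSS plus Ctrl_WT, does not depend on the reading of the tags. In epithelial-like cells it was negative for 32 of 34 members, with a median of -0.73 against -0.02 over all genes (48.6% of genes were positive). It was -1.83 (SE 0.39) for Eif2ak3, -1.32 (SE 0.31) for Xbp1, -1.37 (SE 0.34) for Pdia5 and -1.10 (SE 0.27) for Pdia6, each with an adjusted p of 0.226. For Atf4 and Ssr4 it was -1.15 and -0.95, with adjusted p of 0.243 and 0.247. By edgeR 0 were called, where 0.018% of genes were, 19 had an unadjusted p under 0.05, where 9.66% of genes had, and DESeq2 called 0. The goblet-like share has the same sign of interaction, as the shares above show. Without goblet-like cells the median was -0.26 with 7 of 33 positive (48.4% of genes were), edgeR called 0 (0.00972% of genes), 0 had an unadjusted p under 0.05, where 3.84% of genes had, and DESeq2 called 0. The part of the goblet-like share in the epithelial-like values was not tested beyond these values without goblet-like cells.

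Within goblet-like cells, Ctrl_DSS and TG_WT had at least 20 cells in both batches (120 and 160 against 100 and 35). Summed members were 10180 and 12027 CPM against 9106 and 10696. Values of the tags overlapped across batches, while within batches Ctrl_DSS over TG_WT was 1.118 and 1.124. Ern1 was at 83.8 and 52.0 CPM against 40.9 and 33.6 without overlap (log2 0.76, SE 0.23, adjusted p 0.287). Creb3l1 was at 319 and 369 against 273 and 199 (log2 0.43, SE 0.17, adjusted p 0.401), and Ero1l at 28.2 and 43.5 against 46.9 and 49.9 (log2 -0.59, SE 0.22, adjusted p 0.379). Eif2ak3, Pdia5 and Sdf2l1 followed at -0.44, 0.35 and 0.29. The median was 0.06, with 20 of 34 positive (50.3% of genes were). In these cells edgeR called 0, where 0.11% of 9957 genes were called, 3 had an unadjusted p under 0.05, where 11.8% of genes had, and DESeq2 called 0. Deep-crypt-like cells were 73.3% and 70.6% of goblet-like cells under Ctrl_DSS and 41.0% and 45.7% under TG_WT, and the difference for Creb3l1 was 0.25 in deep-crypt-like and -0.042 in mature-like cells alone (at least 10 cells per sum).

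Monocyte or macrophage-like cells were compared between TG_DSS (232 and 328 cells) and TG_WT (31 and 353 cells). Summed members were 5485 and 5831 CPM against 4369 and 6117, with overlap, and the ratio within batches was 1.26 and 0.953. The median was 0.17 over 32 members, 24 of them positive (55.6% of genes were). As in the other classes, edgeR called 0, where 0.0% of 9112 genes were called, 0 had an unadjusted p under 0.05, where 0.944% of genes had, and DESeq2 called 0. Dnajb9 had the smallest p, at 18.1 and 41.4 CPM against 70.6 and 55.8 (log2 -1.04, SE 0.51, adjusted p 1.00), followed by Hyou1 (0.92), Atf4 (0.60), Xbp1 (0.54), Calr (0.53) and Creld2 (0.59). The median SE of a member was 0.51. Neutrophil-like cells were too few under the Ctrl tags for comparison, and their summed members were 1857 and 1879 CPM under TG_DSS and 1877 and 1980 under TG_WT, the latter from 16 cells in batch 1. With at least 10 cells per sum, 26 members could be tested between TG_DSS and TG_WT. There edgeR called 0, where 0.152% of 5256 genes were called, and 1 had an unadjusted p under 0.05, where 3.67% of genes had. It was Ero1l, at 52.9 and 57.2 CPM under TG_DSS and 229 and 153 under TG_WT without overlap (log2 -1.63, SE 0.46, adjusted p 0.151), where the batch 1 value under TG_WT rests on 10 UMIs.

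Of the 127 wider ER genes, 124 were tested in epithelial-like cells. Between TG_DSS and Ctrl_DSS, Nupr1, a stress-induced transcription cofactor, was lower (log2 -2.06, SE 0.30, adjusted p 0.0223) and Cebpb, a transcription factor, was higher (log2 1.87, SE 0.32, adjusted p 0.0412). Nupr1 was at 573 and 843 CPM under TG_DSS and 1966 and 3903 under Ctrl_DSS. It is goblet-linked, at 3658 and 5379 CPM in goblet-like against 113 and 127 in colonocyte-like cells. Cebpb was at 222 and 416 CPM under TG_DSS and 87.0 and 76.2 under Ctrl_DSS, and neutrophil-like cells held 6681 and 7733. Without cells over 0.1% neutrophil UMIs the differences were -1.65 and 0.56 and neither gene was called. Leaving out either Ctrl_DSS or either TG_DSS sum also ended the call for Cebpb (1.43 to 2.28). For Nupr1 the call ended without Ctrl_DSS replicate 2 (-1.53), TG_DSS replicate 1 (-1.91) or TG_DSS replicate 2 (-2.24), and it was kept without Ctrl_DSS replicate 1. Without the batch block neither was called (1.93 for Cebpb and -2.08 for Nupr1), and at most 10% mitochondrial UMIs ended the call for Nupr1 (-1.87).

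In non-goblet epithelial-like cells, 119 of the wider genes were tested. Cebpb was higher under TG_DSS than under Ctrl_DSS (log2 1.61, SE 0.26, adjusted p 0.0236) and than under Ctrl_WT (log2 2.21, SE 0.28, adjusted p 0.00997), at 203 and 322 CPM against 94.0 and 75.4 and against 53.4 and 51.5. Slc7a11, a cystine transporter raised by ATF4, passed only against Ctrl_WT (adjusted p 0.046). It was at 21.7 and 22.8 CPM under TG_DSS and at 0 under Ctrl_WT, where 3 UMIs would be 2.23 and 4.06 CPM. Neutrophil-like cells held 1793 and 1562 CPM of Slc7a11, and the neutrophil list summed to 2899 and 3798 CPM in these TG_DSS cells. Without cells over 0.1% neutrophil UMIs, Cebpb was at 0.72 and 1.33 on the log2 scale and not called. The calls for Cebpb against Ctrl_DSS ended without Ctrl_DSS replicate 2 (1.28) or either TG_DSS replicate (1.95 and 1.25), those against Ctrl_WT without either Ctrl_WT replicate (2.40 and 2.03) or TG_DSS replicate 2 (1.85), and that for Slc7a11 without any 1 of the 4 sums. In colonocyte-like clusters alone none of these was called, and without the batch block Cebpb (1.64 against Ctrl_DSS) and Slc7a11 were not. At most 10% mitochondrial UMIs also ended the call for Slc7a11. The part of neutrophil transcripts in these values was not tested further. No other wider gene passed in any of the 16 comparisons.

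In epithelial-like cells, 103 of the 124 wider genes were positive between Ctrl_DSS and Ctrl_WT (52.1% of genes were) with a median of 0.36. Without goblet-like cells 69 of 119 were (49.2% of genes), with a median of 0.051. Dnajc10 (log2 1.18, adjusted p 0.0890), Fkbp11 (2.24, 0.107) and Txndc12 (0.93, 0.108) had the smallest p. In the interaction, 24 of 124 were positive (48.6% of genes were) with a median of -0.51, against 52 of 119 (48.4% of genes) and -0.071 without goblet-like cells. In epithelial-like cells Nupr1 (-2.45), Kdelr3 (-1.72) and Kdelr2 (-1.24) had the smallest p, each with an adjusted p of 0.226. A list of 18 genes raised by tissue dissociation was positive against Ctrl_WT under each other tag. In epithelial-like cells all 18 were positive under Ctrl_DSS (median 0.50), 17 under TG_WT (0.36) and 16 under TG_DSS (0.27). Without goblet-like cells 16 were positive under Ctrl_DSS (0.42), 17 under TG_WT (0.51) and 16 under TG_DSS (0.61). In the interaction 3 of 18 were positive in either class, with medians of -0.69 and -0.49. By edgeR 0 of the 18 were called in these comparisons. The part of this list in the members' values was not tested.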

How the data were processed

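The deposited files hold raw UMI counts per gene and barcode, made by the authors with Cell Ranger 7.0.0 on mm10, per the submitters' processing notes. Cells were called, filtered (at least 250 genes, at most 25% mitochondrial UMIs), tagged by mixture thresholds and clustered with scanpy 1.11.5 (Leiden resolution 1.0, leidenalg 0.10.2, Python 3.11.15). Scrublet by its own threshold marked 0% and did not work, so only cells carrying several tags were marked as doublets. They entered no sum by tag but stayed in the levels by class. CPM are UMIs per 1000000 UMIs of a class. Sums of counts over a class, tag and batch (at least 20 cells) entered edgeR 4.0.16 in R 4.3.3 (quasi-likelihood, TMM, filterByExpr, tag and batch as terms, Benjamini-Hochberg over all genes, threshold 0.05). DESeq2 1.42.0 was an alternative. A batch pools its 4 tags, which is why batch is a block. The test was tested on simulated counts. Per comparison, called members or the 6 with the smallest p are named, and from the wider lists called genes or the 3 with the smallest p. The members and lists were chosen with earlier results of these data known.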

Additional observations from a re-analysis of the deposited data

How the results depend on the processing

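A tag has 2 sums, and some hold under 60 cells, which limits the tests between tags. Leaving out the batch block (no replicate block) kept the count of called members at 0 in all 16 comparisons, and RLE size factors reversed no named gene. In epithelial-like cells, Ctrl_DSS against Ctrl_WT gave 5 called members with DESeq2, 8 with no filter and 0 to 2 with 1 sum left out, Ctrl_DSS against TG_WT gave 2 with no filter and 0 to 1 with 1 sum left out, TG_DSS against Ctrl_DSS gave 3 with DESeq2, 5 by the highest-tag rule and 11 with no filter, and with no filter TG_DSS against TG_WT gave 1 and the interaction 8. With no filter 1 member was called in goblet-like cells and 1 in non-goblet epithelial-like cells (Ctrl_DSS against Ctrl_WT). The highest-tag rule left no value for comparisons with Ctrl_WT. These counts stand without the share of all genes called under each setting, so they are not set against a background. The cause of these shifts was not tested. 

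Signs reversed for single genes. Creb3l1 in goblet-like cells (Ctrl_DSS against TG_WT) was -0.042 in mature-like cells only. In non-goblet epithelial-like cells, TG_DSS against Ctrl_DSS gave 0.19 for Hsp90b1 and -0.083 for Atf6 in colonocyte-like clusters only. With 1 sum left out, that comparison ran from -0.64 (without Ctrl_DSS replicate 2) to 0.025 (without Ctrl_DSS replicate 1) for Atf4 and from -3.56 (without Ctrl_DSS replicate 1) to 0.048 (without Ctrl_DSS replicate 2) for Ern2. TG_DSS against TG_WT gave, for Pdia5, -0.039 without cells over 0.1% neutrophil UMIs, -4.84 in colonocyte-like clusters only, and -0.66 (without TG_DSS replicate 1) to 1.80 (without TG_WT replicate 1) with 1 sum left out. For Ddit3 it ran from -1.25 (without TG_DSS replicate 2) to 0.23 (without TG_DSS replicate 1), with 0.13 without TG_WT replicate 1. The interaction for Ern2 ran from -4.78 (without Ctrl_DSS replicate 1) to 1.57 (without TG_WT replicate 1).

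Summed levels as means of both batches moved on the reduced total to 12308 CPM in goblet-like, 12918 in deep-crypt-like, 10057 in mature-like, 3767 in colonocyte-like, 28779 in plasma cell-like and 5879 in fibroblast-like cells. With the per-cell marker gate they were 7206 in mature-like, 3382 in colonocyte-like and 1817 in neutrophil-like cells, with at most 10% mitochondrial UMIs 7341 in mature-like and 3701 in colonocyte-like cells, and with tagged cells only 7225 in mature-like, 3774 in colonocyte-like, 1886 in neutrophil-like and 5966 in fibroblast-like cells. Without Scrublet's top scores fibroblast-like cells had 5980. Without cells carrying several tags neutrophil-like cells had 1886, and the other classes compared moved by less than the spread between batches. Plasma cell-like against goblet-like counts became 16 higher and 3 lower on the reduced total. The reduced total, the neutrophil limit, leaving out cells with several tags, the subset-only and colonocyte-only fits and the added unnamed clusters were chosen after seeing the data.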
